A study of Mus musculus with 35 samples.

Results

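The MAP kinase cascades and the dual-specificity phosphatases that oppose them were followed through side population (SP) cells and CD8 T lymphocytes of mouse bone marrow, down to single cells. The members were all genes on the array whose symbol named a kinase of the MAP4K, MAP3K, MAP2K, MAPK or MAPKAPK series, a scaffold named after a MAP kinase, or a numbered dual-specificity phosphatase. The symbols gave 39 genes with 60 probe sets, of 8251 genes with a probe set of their own on the array. Each gene was represented by the probe set with the highest mean log2 level over all 35 arrays, without regard to any group. The 39 genes comprised 2 MAP4K, 10 MAP3K, 6 MAP2K, 8 MAPK, 2 MAPKAPK and 2 scaffold genes, 6 MAPK phosphatases and 3 other dual-specificity phosphatases.

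In these cascades a signal at the membrane is passed from kinase to kinase by phosphorylation: a MAP3K, at times switched on by a MAP4K, activates a MAP2K, which activates a MAPK, and the MAPK acts on transcription factors and on further kinases such as the MAPKAPK enzymes. The ERK arm answers growth factors, whereas the p38 and JNK arms answer stress and inflammatory signals. MAPK phosphatases of the dual-specificity family switch the MAPK off again, and several of them are themselves induced by the signal they end. In hematopoietic stem cells the p38 arm is known for its link to oxidative stress and loss of quiescence, and in T lymphocytes the same cascades carry signals from the T cell receptor.

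All cells came from the marrow of C57Bl/6 mice carrying CD45.1, used at 7 to 9 wk of age; the labels call the mice male for every group but the upper SP samples, for which no sex is given. SP cells pump out the Hoechst dye, and those sorted carried Sca-1 and lacked Gr-1. The groups included lower SP (LSP, samples A, B and M) and upper SP (USP, samples N, O and Z), cut from opposite ends of the SP tail. The others were CD8 lymphocytes positive for CD3 and CD8 (samples B, C and D), 12 single SP cells from the tip of the tail (A to L), and 5 single-cell equivalents (SCE, A to E). The SCE were equal portions of 1 lysate of 40 SP cells and so differ from each other only by how the lysate was sampled and by technique. The study does not give the part of the tail these 40 cells came from. Each LSP, USP and CD8 sample was a pool of 4 amplifications of 10 cells, was hybridised to 2 arrays and counted once, so that n = 3 samples a group; the labels do not say that samples came from separate mice, and p-values then measure the spread between these samples only. The labels name no treatment and no engineered allele.

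Levels are log2 of the deposited intensity. Levels of ten-cell samples under log2 7 were set to 7, here called the floor, and single cells and SCE were called detected at log2 9 or more. Levels of different genes come from different probe sets and were not ranked against each other. The labelled cell types of the ten-cell samples were borne out by their markers. All 8 T cell genes measured were above log2 7 on at least 1 CD8 array, at a summed intensity of 20162 to 21532 per array. By the same count 3 of them passed in LSP and 0 in USP. Their sum was 0 to 730 in LSP and 0 in every USP array. All 8 stem cell genes were above log2 7 on at least 1 LSP array and at least 1 USP array, but only 1 of them on any CD8 array. B cell genes reached a summed intensity of 9217 on 1 CD8 array (median 1970). Single cells were less uniform. Their stem cell genes summed to 1226 to 15656 per cell (median 10469) and their T cell genes to 0 to 1987 (median 567). In at least 1 single cell, 7 of the 8 stem cell genes and all 8 T cell genes were above log2 7. B cell genes reached 7271 in a single cell (median 393), and granulocyte and monocyte genes 9042 (median 1859). In SCE the stem cell genes summed to 7440 to 16131 and the T cell genes to 196 to 582. Of the 12 ten-cell SP arrays, 9 held 24.6 to 32.1% negative intensities, and the other 26 arrays of the series held none. All CD8, single-cell and SCE arrays were among the latter, so values from the positive arrays alone are given beside the larger differences of SP and CD8. That set holds 1 LSP and 1 USP sample, so the spread in its fit comes from the 3 CD8 samples alone.

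The sequences that go with the results concern 3 genes. Map2k3, the kinase that activates p38, had been chosen by the study for Q-PCR, with the following primers listed for the probe set used here:
Map2k3 forward primer: ctggagtctgcaaggatggc
Map2k3 reverse primer: gctccctcgtggctttgag
The 250 bases upstream of the annotated start are given for Map2k3, for Mapkapk2, the kinase that p38 activates in turn, and for Dusp11, a phosphatase that acts on RNA, because these were the members that differed most among those with no overlap between SP and CD8 (RefSeq, GRCm38.p6, 5′ to 3′ on the gene's strand). Capitals mark matches to a GC box, GGGCGG, or a CAAT box, CCAAT; the other motifs searched, all on both strands, were the ETS motif CCGGAAG, the CRE TGACGTCA, the AP-1 motif TGANTCA, the GATA motif AGATAA and the E-box CACGTG. The windows were chr11:60931804-60932053 on the plus strand for Map2k3, chr1:131097844-131098093 on the minus strand for Mapkapk2 and chr6:85961668-85961917 on the minus strand for Dusp11.
Map2k3 upstream: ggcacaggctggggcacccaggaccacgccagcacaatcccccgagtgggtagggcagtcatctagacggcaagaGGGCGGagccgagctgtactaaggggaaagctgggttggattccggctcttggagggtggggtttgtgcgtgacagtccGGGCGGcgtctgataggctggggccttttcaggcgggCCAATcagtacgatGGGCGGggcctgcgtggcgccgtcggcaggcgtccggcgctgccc
Mapkapk2 upstream: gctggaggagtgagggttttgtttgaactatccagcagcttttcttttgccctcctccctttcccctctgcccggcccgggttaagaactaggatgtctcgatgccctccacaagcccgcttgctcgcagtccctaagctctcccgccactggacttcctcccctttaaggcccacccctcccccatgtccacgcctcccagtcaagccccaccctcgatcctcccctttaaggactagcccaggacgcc
Dusp11 upstream: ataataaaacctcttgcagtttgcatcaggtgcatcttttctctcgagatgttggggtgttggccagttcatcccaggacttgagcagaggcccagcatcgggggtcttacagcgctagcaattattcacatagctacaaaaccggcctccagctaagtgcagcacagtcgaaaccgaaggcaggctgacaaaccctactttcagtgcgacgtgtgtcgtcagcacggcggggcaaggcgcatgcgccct
The Map2k3 window held 3 GC boxes, at -175 to -170, -96 to -91 and -45 to -40 from the start, and 1 CAAT box at -59 to -55, and none of the other motifs. The Mapkapk2 and Dusp11 windows held none of the 7 motifs, which says only that these letters are not there. G and C made up 67.6% of the Map2k3 window, 60.4% of the Mapkapk2 window and 54% of the Dusp11 window. A promoter entry was found for 33 of the 39 members. A GC box stood in the window of 22 of these 33 and in 32.7% of all 32851 windows, and a CAAT box in that of 12 against 33.8%. The CRE, which stood in 1.55% of all windows, was found upstream of Dusp1, Dusp8 and Mapk10. The ETS motif was found for 4 members (6.91% of all windows), the E-box for 5 (6.02%), the GATA motif for 2 (9.99%) and the AP-1 motif for 1 (6.75%). Members were counted by gene and the background by window, over all entries and not array genes alone, so these shares are not a like comparison.

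The ten-cell arrays measured 25 of the 39 members above the floor somewhere, and these were tested, as were 54.9% of all 12422 probe sets. A member stands here for the highest of its probe sets, and over all 60 member probe sets the share was 51.7%. The other 14 were at the floor in all 9 ten-cell samples. They were the MAP3K genes Map3k2, Map3k5, Map3k6 and Map3k8, the MAP2K genes Map2k1, Map2k4 and Map2k6, the MAPK genes Mapk10 and Mapk13, Mapkapk5, and the phosphatases Dusp6, Dusp8, Dusp9 and Dusp19. Map2k1 encodes MEK1, an activator of ERK, and Dusp6 the phosphatase that acts chiefly on ERK. A level at the floor is a bound for that probe set and does not show that the gene was silent. Map3k11, Mapk14 and Mapk8ip3 were above the floor in all 9 ten-cell samples, as were 11.4% of all probe sets, and with Map2k3 and Mapkapk2 they made up the 5 members above it in all 6 SP samples, against 14.3% of all.

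The comparison of SP with CD8 asked which members distinguish stem cells from a mature lymphocyte. The p38 activator Map2k3 was higher in SP and the RNA phosphatase Dusp11 was higher in CD8, and these were the 2 members called of 25 tested (limma, adjusted p under 0.05), against 5.83% of all 6823 probe sets tested (2.83% higher in SP and 3% higher in CD8). The groups did not overlap for 4 members, Map2k3, Mapkapk2, Map3k11 and Dusp11, against 11.3% of all probe sets. The median log2 difference of the 25 members, SP minus CD8, was 0.33 (15 above 0 and 10 below) and that of all probe sets 0.04.

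**Figure D1:**
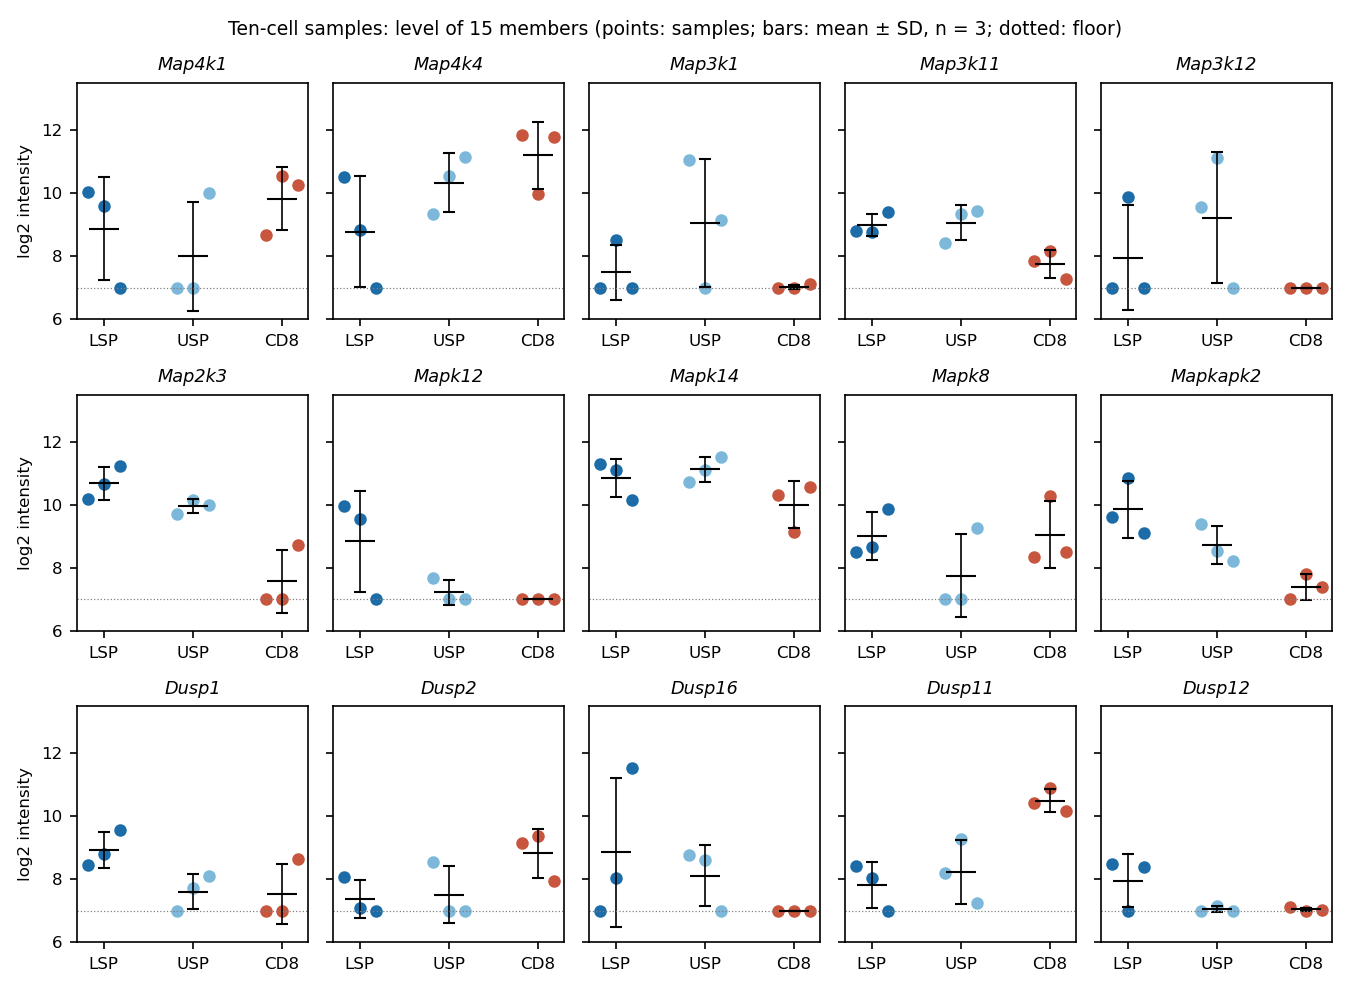
Log2 intensity of 15 members in the ten-cell samples of LSP, USP and CD8; points are samples, bars the mean ± SD (n = 3) and the dotted line the floor at log2 7. Map2k3, Mapkapk2 and Map3k11 lie higher in every SP sample than in any CD8 sample, and Dusp11 lies lower, while Map3k12, Mapk12 and Dusp16 are at the floor in all CD8 samples and spread widely in SP.

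Map2k3 had a log2 level of 10.19, 10.65 and 11.23 in LSP A, B and M, 9.72, 10.14 and 10.01 in USP N, O and Z, and 7, 7 and 8.72 in CD8 B, C and D. Every SP sample was thus above every CD8 sample, and 2 of the 3 CD8 samples were at the floor. The log2 difference was 2.75 (SE 0.44, 95% interval 1.71 to 3.79, adjusted p = 0.0146 from limma), a 6.73-fold higher level in SP with the CD8 samples at the floor taken as 7. On positive arrays alone it was 2.81 (adjusted p = 0.151). The call rested on the CD8 samples at the floor, with adjusted p = 0.06 without CD8 B and 0.06 without CD8 C. Both other probe sets of Map2k3 were at the floor in all ten-cell samples, so that the difference was seen with 1 of its 3 probe sets.

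Mapkapk2 encodes MK2, the kinase through which p38 stabilises the mRNA of inflammatory genes. Its other probe set was at the floor in all ten-cell samples. With the probe set used here, the level was 9.62, 10.86 and 9.11 in LSP A, B and M. It was 9.4, 8.55 and 8.22 in USP N, O and Z, and 7, 7.81 and 7.38 in CD8 B, C and D. SP and CD8 did not overlap, and the log2 difference of 1.90 (SE 0.45, 95% interval 0.84 to 2.95) had an adjusted p of 0.0594 from limma and did not pass the test. It passed under quantile normalization (adjusted p = 0.0436, limma), among probe sets with a mean level of at least 8 (0.0406) and without LSP M (0.042). It also passed with duplicate arrays kept apart and the sample as a random block (0.00998), and with array number added to that fit (0.00797). It did not pass in the other settings, among them a floor of log2 8 (0.146) and leaving out CD8 B (0.202). The ordinary 2-group test gave an adjusted p of 0.162. Its difference on positive arrays alone was 2.16 (adjusted p = 0.0508).

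Mapk14, which encodes p38 alpha and stands between Map2k3 and Mapkapk2 in the cascade, was above the floor in all 9 samples. Its level was 10.16 to 11.28 in LSP (median 11.11), 10.73 to 11.53 in USP (median 11.12) and 9.15 to 10.58 in CD8 (median 10.3). The groups overlapped, and the log2 difference of 0.98 (SE 0.40, adjusted p = 0.258, limma) did not pass. Mapk12, which encodes p38 gamma, reached 9.97 in LSP A, 9.55 in LSP B and 7.68 in USP N and was at the floor in the other 6 samples (difference 1.03, SE 0.63, adjusted p = 0.488, limma; 0.96 and 0.000886 on positive arrays alone, where the CD8 samples at the floor had no spread). The difference of Mapk14 on positive arrays alone was 1.36 (adjusted p = 0.295).

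Upstream of the MAP2K level no member passed. Map3k11, or MLK3, a kinase that feeds JNK and p38, was at 8.8, 8.78 and 9.41 in LSP, 8.44, 9.34 and 9.44 in USP, and 7.86, 8.16 and 7.28 in CD8. These groups did not overlap, with a log2 difference of 1.27 (SE 0.31, 95% interval 0.54 to 2.00, adjusted p = 0.0671, limma; 0.0354 without USP N), and one of 1.32 on positive arrays alone (adjusted p = 0.14). Map3k12, or DLK, an activator of JNK, was found at 9.88 in LSP B, 9.57 in USP N and 11.11 in USP O and at the floor in the other 3 SP samples and in all CD8 samples. Map3k1, or MEKK1, was at 11.05 in USP N, 9.15 in USP Z and 8.51 in LSP B and at the floor in the other SP samples, with CD8 between 7 and 7.11. The wide intervals of both (SE 1.01 and 0.84) left their differences of 1.59 and 1.25 short of the test (adjusted p = 0.509 and 0.52). On positive arrays alone they were 1.36 for Map3k12 and 1.63 for Map3k1 (adjusted p = 0.000571 and 0.00298), with CD8 samples at or near the floor and so almost without spread. The probe sets of Map3k1 and Mapk14 are of the kind named _s_at, which can match several related transcripts. Both other probe sets of Map3k1 were at the floor in all ten-cell samples and were detected in no single cell and no SCE.

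Neither MAP4K gene passed; both had a higher mean in CD8, but on positive arrays alone Map4k1 turned to 0.16 (adjusted p = 0.904), while Map4k4 was at -1.75 (adjusted p = 0.326). Map4k1, or HPK1, a brake on T cell receptor signalling, was at 10.03, 9.6 and 7 in LSP, 7, 7 and 10 in USP and 8.68, 10.55 and 10.25 in CD8, a log2 difference of -1.39 (SE 0.98, adjusted p = 0.528, limma). Of the 6 SP samples, 3 were at the floor and the other 3 lay within the CD8 range. Map4k4 was at 7 to 10.51 in LSP, 9.33 to 11.16 in USP and 9.99 to 11.84 in CD8 (difference -1.64, SE 0.86, adjusted p = 0.396). Another of its probe sets gave -1.21 (adjusted p = 0.148), in the same direction, whereas the 3 probe sets of Map3k3 gave -0.54, -1.12 and 0.19.

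The JNK kinases Mapk8 and Mapk9, ERK5 (Mapk7) and ERK3 (Mapk6) differed by -0.67, 0.04, -0.91 and 0.47 on the log2 scale, with adjusted p from 0.521 to 0.844 (limma). The other probe set of Mapk8 was at the floor in all ten-cell samples. The JNK scaffolds Mapk8ip1 and Mapk8ip3 differed by 0.33 and -0.57 (adjusted p = 0.736 and 0.511). Mapk8ip3 was above the floor in every sample, at 7.03 to 8.7 in SP and 8.22 to 8.76 in CD8. Of the other kinases tested, Map2k2, which encodes the ERK activator MEK2, differed by 0.16, Map2k5, the activator of ERK5, by -0.63, Map3k4 by -0.09 and Map3k7, or TAK1, by 0.34, with adjusted p from 0.681 to 0.779. Map2k5 was high in a single CD8 sample, D, at 10.27.

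Among the phosphatases, Dusp11 was at 8.43, 8.04 and 7 in LSP A, B and M, 8.19, 9.29 and 7.25 in USP N, O and Z and 10.42, 10.9 and 10.17 in CD8 B, C and D. All 3 CD8 samples were above all 6 SP samples. The log2 difference was -2.47 (SE 0.50, 95% interval -3.66 to -1.28, adjusted p = 0.0367 from limma), or 5.52-fold higher in CD8, and on positive arrays alone it was -2.97 (adjusted p = 0.0246). The call was lost without any 1 of CD8 B, C or D (adjusted p = 0.113, 0.134 and 0.096), without LSP B (0.0632) and without USP N (0.0732). Dusp11, unlike the MAPK phosphatases, acts on the phosphorylated ends of RNA.

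Dusp2, or PAC1, a nuclear MAPK phosphatase known from activated T lymphocytes, was at 8.08, 7.08 and 7 in LSP, 8.56, 7 and 7 in USP and 9.16, 9.38 and 7.94 in CD8. Its difference of -1.38 (SE 0.51, 95% interval -2.59 to -0.17) did not pass (adjusted p = 0.204, limma; -1.75 and 0.216 on positive arrays alone). Dusp1, or MKP-1, which acts on p38 and JNK, differed by 0.73 (SE 0.48, adjusted p = 0.52). Dusp16, a JNK phosphatase, was at 11.53 in LSP M, 8.03 in LSP B, 8.76 in USP N and 8.6 in USP O and at the floor in LSP A, USP Z and every CD8 sample (difference 1.49, SE 0.98, adjusted p = 0.52; 0.82 and 0.443 without LSP M). On positive arrays alone, again with CD8 at the floor, its difference was 0.4 (adjusted p = 0.00356). Another probe set of Dusp16 gave 0.68 (adjusted p = 0.52, limma), also with every CD8 sample at the floor. Dusp12 differed by 0.46 (adjusted p = 0.532, limma) and by -0.05 on positive arrays alone.

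**Figure D2:**
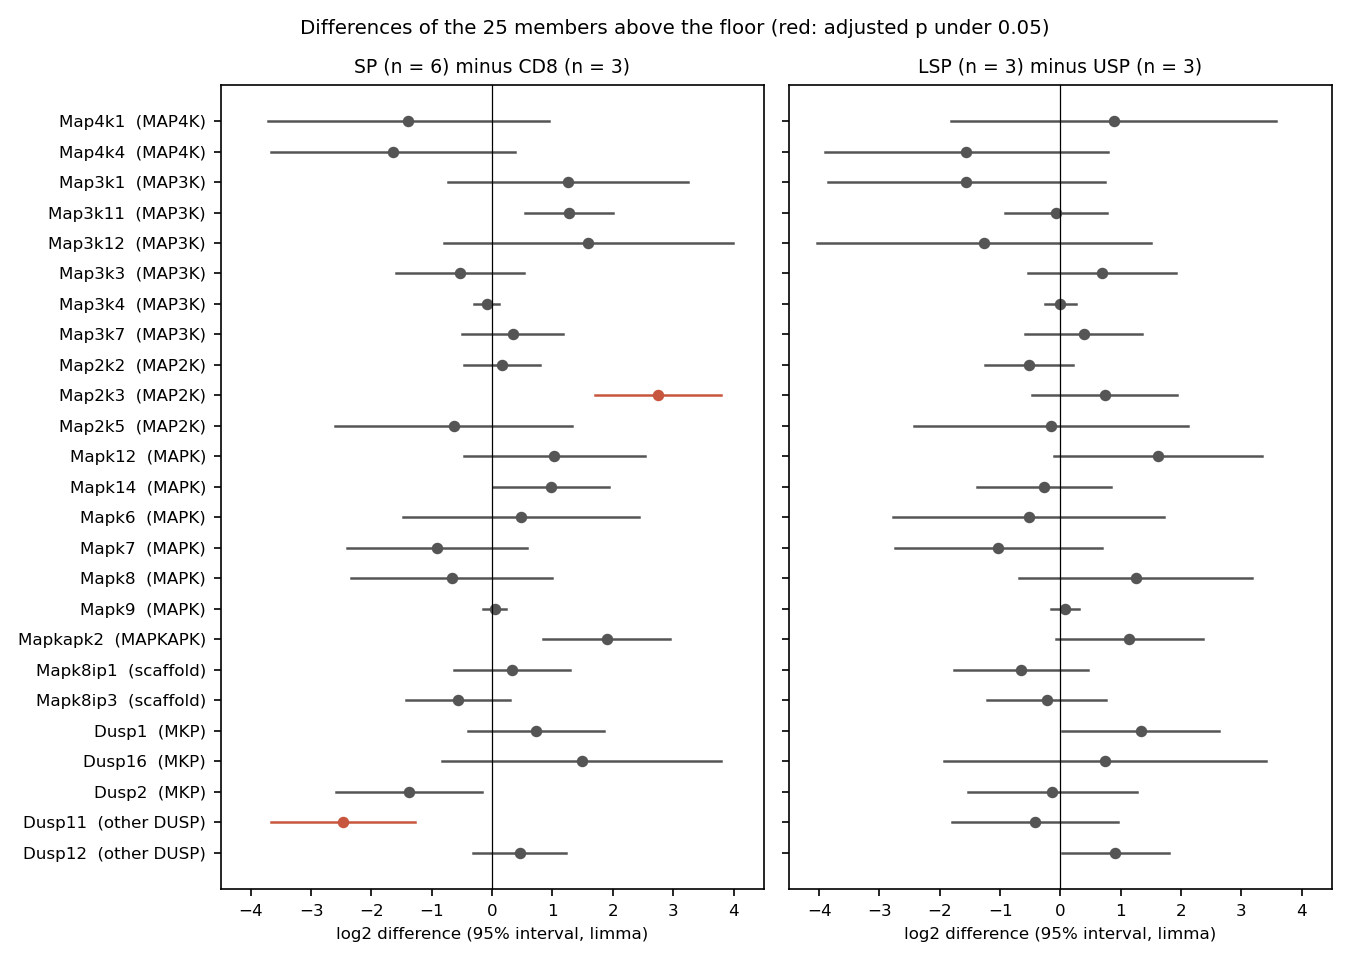
Log2 differences of the 25 tested members, SP minus CD8 on the left and LSP minus USP on the right; points are the limma estimates, lines their 95% intervals and red marks an adjusted p under 0.05. Map2k3 at 2.75 and Dusp11 at -2.47 are the members in red on the left, and none is red on the right.

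LSP and USP were compared because the lower part of the SP tail is richer in long-term stem cells. No member was called among 25 (limma), against 0.103% of all 6823 probe sets, and 2 members had an unadjusted p under 0.05, Dusp1 and Dusp12, against 5.99% of all. The same LSP and USP samples made up SP in the comparison with CD8. The median log2 difference, LSP minus USP, was -0.08 over the members (12 above 0 and 13 below) and 0 over all probe sets.

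Dusp1 was at 8.45, 8.79 and 9.57 in LSP A, B and M and at 7, 7.72 and 8.1 in USP N, O and Z. LSP lay wholly above USP, with a log2 difference of 1.33 (SE 0.55, 95% interval 0.03 to 2.63, adjusted p = 0.826, limma). Map2k3 was the other member with no overlap between LSP and USP (difference 0.73, SE 0.51, adjusted p = 0.876); groups that did not overlap were found for 5.98% of all probe sets. Mapkapk2 differed by 1.14 (SE 0.52, adjusted p = 0.84). Mapk12 had a difference of 1.61 (SE 0.73, adjusted p = 0.84; 2.53 and 0.0308 without LSP M), and Dusp12, at 8.5 in LSP A and 8.38 in LSP M and near the floor in the rest, one of 0.91 (SE 0.38, adjusted p = 0.826; 1.39 and 0.0208 without LSP B). Map3k1 and Map4k4 both had a difference of -1.56 (SE 0.97 and 0.99, adjusted p = 0.876 for both), which became -0.57 for Map3k1 without USP N and -0.67 for Map4k4 without LSP M. Leaving out 1 sample also brought Mapk12 down to 1.05 (without LSP A), Mapkapk2 to 0.64 (without LSP B), Dusp12 to 0.64 (without LSP A) and Map2k3 to 0.46 (without LSP M). The other large differences were -1.27 for Map3k12, 1.25 for Mapk8, -1.03 for Mapk7 and 0.88 for Map4k1, with adjusted p of 0.876 to 0.93, and all 4 had the opposite sign on positive arrays alone. Markers of other cells moved between these groups: summed intensity of the granulocyte and monocyte genes was 1324 to 4260 per array in LSP and 4179 to 8355 in USP, with Mpo, Elane, Itgam and Csf1r at or under log2 7 in both. Of the 4 erythroid genes measured, the hemoglobin gene Hba-a1 alone was higher in USP, at an intensity of 1631 to 2783 per array against 61 to 444 in LSP; Alas2 and Epor were under log2 7 in both groups, and Klf1 passed it on 1 LSP array and no USP array. The part of these markers in the differences was not tested. In pools of cells, fewer cells of a type and less RNA per cell cannot be told apart.

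Single cells showed how the members were divided among individual SP cells. At log2 9 or more, 18 of the 39 members were detected in at least 1 of the 12 cells, against 33.9% of all 12422 probe sets, and 18 in at least 1 SCE, against 25.3%. Over all 60 member probe sets, without choosing the highest per gene, the shares were 36.7% and 35%. A single cell had 1 to 7 members detected (median 4) and an SCE 4 to 12 (median 6), while 9.6 to 12% of all probe sets (median 10.45%) were at log2 9 or more in a single cell and 10.9 to 12.6% (median 12%) in an SCE. No member was detected in all 12 cells, as were 1.48% of all probe sets. Map2k3 and Dusp2, at 6 cells each, were the members detected in 6 cells or more, against 7.99% of all probe sets. A further 3 members were detected in 1 cell, 6 in 2 cells, 5 in 3 cells and 2 in 4 cells. Map2k3 was the only member detected in all 5 SCE, against 3.55% of all probe sets. The remaining 18 members were detected in no single cell and no SCE, against 62.5% of all.

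**Figure D3:**
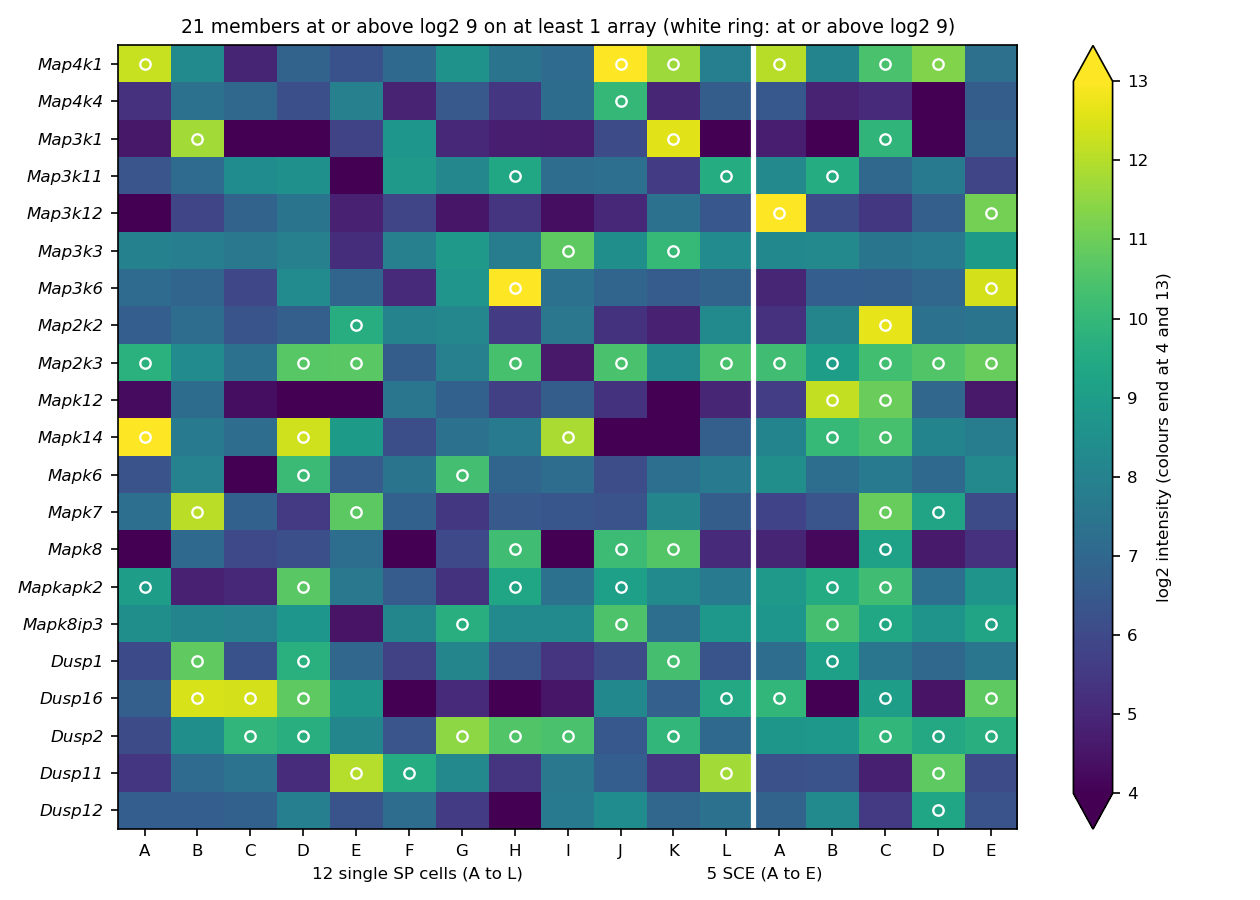
Log2 intensity of the 21 members detected in at least 1 of the 12 single SP cells (A to L) or 5 SCE (A to E), by colour; white rings mark levels of log2 9 or more. Map2k3 is ringed in 6 cells and in all SCE, while Map4k1, Mapk14 and Dusp16 are high in a few cells and low in the rest.

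Map2k3 was detected in cells A, D, E, H, J and L, at 9.76, 10.65, 10.71, 10.38, 10.41 and 10.4. The other 6 cells, B, C, F, G, I and K, were at 8.33, 7.34, 6.64, 7.92, 4.63 and 8.28, so that the cells fell on both sides of log2 9 with no cell between 8.33 and 9.76. The 5 SCE were at 10.24, 9.04, 10.27, 10.54 and 10.9. Mapkapk2 was detected in cells A, D, H and J, at 9.01, 10.68, 9.32 and 9.08, all 4 of them among the 6 with Map2k3. The other probe sets of Map2k3 and Mapkapk2 were detected in no single cell and no SCE. Across the 12 cells Pearson's r between Map2k3 and Mapkapk2 was 0.56 and Spearman's rho 0.62 (r = 0.79 over the 10 cells left without the 2 farthest from the median of Map2k3), a description of cells that share array scaling and amplification. Mapk14, the kinase between them, was detected in cells A, D and I, at 13.08, 12.36 and 11.85. Its r was -0.05 to Map2k3 and 0.24 to Mapkapk2. The first turned to 0.27 without the 2 cells farthest from the median of Map2k3, I and F. The second turned to -0.27 without the 2 farthest from the median of Mapk14, A and D, which are 2 of the 3 cells with Mapk14. Cells A and D held all 3 above the threshold.

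Other members were high in a few cells and low in the rest. Map4k1 was at 12.23, 13.03 and 11.68 in cells A, J and K and between 4.92 and 8.59 in the other 9. Dusp16 was at 12.47, 12.43, 10.75 and 9.43 in cells B, C, D and L, and Mapk8, or JNK1, at 10.25, 10.16 and 10.59 in cells H, J and K. The other probe set of Dusp16 was detected in cell B alone, and that of Mapk8 in no cell. Dusp11 was at 12.01, 9.58 and 11.76 in cells E, F and L. Dusp1 was at 10.79, 9.73 and 10.35 in cells B, D and K. The SCE showed similar scatter for several of these: Dusp16 ranged from 3.99 to 10.77 and Map4k1 from 7.32 to 12.04 among portions of 1 lysate.

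The mean level in single cells was set against that in SCE, which were also amplified from the RNA amount of 1 cell. Where cells vary, the mean of their log2 levels lies below the log2 level of their pooled RNA. A lower mean in single cells therefore does not show that the average was changed. Hba-a1 stood apart between single cells and SCE, at an intensity of 50 to 1340 in single cells and 2818 to 10673 in SCE. The other 3 erythroid genes overlapped. The part of the Hba-a1 gap in the comparisons that follow was not tested. Of the 21 members tested none was called (limma), against 0.0429% of all 4659 probe sets tested, and 2 had an unadjusted p under 0.05, against 5.69% of all. These were Map3k12, with a mean of 5.64 ± 1.22 (SD, n = 12) in single cells and 8.54 ± 3.50 (n = 5) in SCE (difference -2.90, SE 1.07, adjusted p = 0.674), and Mapk12, with 5.37 ± 1.38 and 8.07 ± 3.33 (difference -2.71, SE 1.06, adjusted p = 0.764). Neither was detected in any single cell, and each was detected in 2 SCE, Map3k12 in A and E at 13.37 and 11.12 and Mapk12 in B and C at 12.17 and 10.96. The differences were -1.70 for Map3k12 without SCE A and -1.68 for Mapk12 without SCE B. Map2k3 had a mean of 8.79 ± 1.93 and 10.2 ± 0.70 (difference -1.41, 95% interval -3.29 to 0.46, adjusted p = 0.864), Mapkapk2 differed by -1.33 and Map4k1 by -1.37 (adjusted p = 0.864 and 0.892). The difference was 1.2 for Map4k4 and 1.03 for Mapk8, and -1.14, -1.05 and -0.87 for Map2k2, Mapk8ip3 and Mapk14, with adjusted p from 0.864 to 0.951. Without SCE C that of Map2k2 was -0.02, that of Mapk14 -0.49 and that of Mapk8 1.91, and without SCE A that of Map4k1 was -0.82. The median difference was -0.44 over the members and -0.09 over all probe sets.

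The spread among single cells was compared with that among SCE of 1 lysate, as the mean absolute deviation from the group's median. Of 18 members tested none was called (exact permutation test over the 6188 splits of the 17 arrays, one-sided, Benjamini-Hochberg), against 0.546% of all 4215 probe sets tested. An unadjusted p under 0.05 was found for 2 members, Dusp2 and Map2k3, and for 12.5% of all probe sets. The test is exact only in that it runs all splits, because deviations were first taken from each group's own median. That shrinks them more among the fewer SCE than among the single cells, so the test leans toward larger spread in single cells. Only probe sets detected in a single cell were tested, which favours those that vary there. Map3k12, Mapk12 and Dusp12, detected in SCE alone, were therefore not tested, and had an SD of 1.22, 1.38 and 1.40 in single cells against 3.50, 3.33 and 1.54 in SCE.

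**Figure D4:**
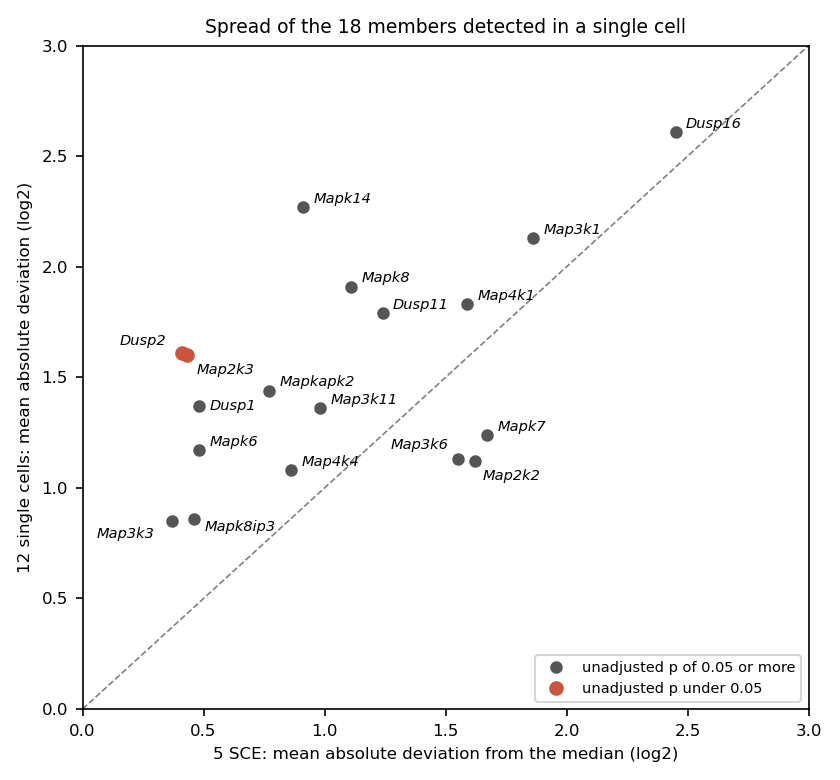
Mean absolute deviation from the median (log2) of the 18 members detected in a single cell, in 12 single cells (vertical) against 5 SCE (horizontal); the dashed line marks equal spread. Dusp2 and Map2k3, in red, lie at 1.61 and 1.60 in single cells against 0.41 and 0.43 in SCE; members detected in SCE alone are not shown.

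Dusp2 ranged from 6.06 to 11.46 in single cells (median 9.05) and from 8.75 to 9.95 in SCE. Its mean absolute deviation was 1.61 against 0.41 (exact permutation p = 0.00129, adjusted p = 0.114), and the adjusted p was 0.0463 without SCE C. It was detected in cells C, D, G, H, I and K, 2 of which, D and H, were also among those with Map2k3 (r between the 2 genes -0.3, rho -0.29, 12 cells). Map2k3 had a deviation of 1.60 against 0.43 (exact permutation p = 0.0021, adjusted p = 0.151; 0.0463 without SCE B). Mapk14 had the largest gap in spread of the members, 2.27 against 0.91 (exact permutation p = 0.095, adjusted p = 0.473). The gap was 0.90 for Dusp1, 0.80 for Mapk8, 0.69 for Mapk6, 0.67 for Mapkapk2, 0.55 for Dusp11 and 0.47 for Map3k3, with adjusted p from 0.484 to 0.604 (exact permutation). For Map2k2, Map3k6 and Mapk7 the SCE were the more scattered group, with gaps of -0.51, -0.42 and -0.43; that of Map2k2 was 0.39 without SCE C.

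The biological proportion estimates the share of a gene's variance among single cells in excess of that among SCE. It was fitted with 1 mean for both groups, so a difference between their means enters the estimate. It was 0.5 or more for 9 of the 18 members that passed the same filter, against 41.5% of the 4215 probe sets that passed it. Nothing is read from this count, which leaves out the 3 members detected in SCE alone. The proportion was 0.93 for Dusp2, 0.90 for Map2k3 and Mapk6, 0.87 for Mapk14 and Map3k3 and 0.84 for Dusp1, and 0 for Map2k2, Map3k6 and Mapk7. With 5 SCE these shares are imprecise.

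The wider Ras and MAPK pathway, a list of 81 genes of which 63 had a probe set, was read in the same way. In SP against CD8, 46 were tested, 1 was called higher in SP and 2 higher in CD8 (limma), against 5.83% of all probe sets, with a median difference of 0.07. Ywhab, a 14-3-3 protein that binds Raf kinases, was at 9.27 ± 0.18 (SD, n = 6) in SP and 8.51 ± 0.07 (n = 3) in CD8 (difference 0.76, SE 0.13, adjusted p = 0.0187). Rac1, a small GTPase that feeds JNK and p38, was at 11.01 ± 0.21 and 11.81 ± 0.05 (difference -0.80, SE 0.13, adjusted p = 0.014). Rasgrp2, which loads the GTPase Rap1, was at 7.15 ± 0.36 and 9.47 ± 0.34 (difference -2.32, SE 0.24, adjusted p = 0.00194). The transcription factor Mef2c, a p38 target, differed by 2.86 (SE 0.65, adjusted p = 0.0531) without passing the test, as did Araf, Jun and Dok2 at -1.85, 1.72 and -1.68 (adjusted p = 0.497, 0.412 and 0.29). In LSP against USP none of the 46 was called, against 0.103% of all probe sets. In the single cells Jund, Rac1 and Rac2 were detected in all 12. These were 3 of the 63 genes, each standing for its highest probe set, against 1.48% of all probe sets. Of 30 pathway genes tested for spread and 36 for the mean none was called, against 0.546% and 0.0429% of all. At such low shares, counts of none say little about the pathway.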

How the data were processed

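RNA of sorted mouse marrow cells was amplified by global single-cell RT-PCR and hybridised to Affymetrix MG-U74Av2 arrays. The authors deposited 1 table of linear intensities for 35 arrays, each scaled to a common 2% trimmed mean (242.3 to 248.1 per array), with 12488 probe sets, of which 66 controls were left out. The methods describe log2 values from RMA, which the deposited intensities are not. Probe sets were named from the platform annotation: 10833 with 1 gene, 396 with several and 1193 with none.

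The members and all gene lists were chosen with earlier results of these data known. Named genes were Map2k3, members past a test, the 10 largest differences per comparison, members detected in at least 10 single cells, and pathway genes past the test with at most 4 more.

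Ten-cell values were set to at least log2 7 (intensity 128), the 2 arrays of a sample were averaged, and LSP, USP and CD8 were fitted together with limma 3.58.1 in R 4.3.3 over probe sets above that floor on any ten-cell array. Single cells and SCE were compared on log2 values without a floor, for the mean with limma over probe sets at log2 9 (intensity 512) on any of the 17 arrays, and for spread with an exact one-sided permutation test over those at log2 9 in a single cell, whose smallest p is 0.000162. The biological proportion was estimated by maximum likelihood. p-values were adjusted by Benjamini-Hochberg over all probe sets tested. Scripts were tested on simulated data. Arrays give no counts, and their number limits the precision. Arrays numbered alike in different samples had deviations that correlated between -0.184 and 0.251 (median -0.00856). Whether some of them shared a batch cannot be told from this range, and the main fit did not pair samples by array number. Alternatives were other floors, filters, normalizations, array sets, left-out samples and tests.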

Additional observations from a re-analysis of the deposited data

Results flagged for a closer look

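Among the 21 members detected in a single cell or an SCE, 4 had 1 SCE far from the other 4, by Dixon's criterion. The criterion is set to flag about 1 in 20 groups of normally distributed values. The share it flags over all probe sets was not computed. The 21 members were kept for reaching log2 9 on some array, so nothing is read from the count. Dusp1 was at 9.09 in SCE B and 7.04 to 7.54 in the others. Dusp11 was at 10.75 in SCE D and 4.79 to 6.32 in the others. Map3k6 was at 12.43 in SCE E and 4.95 to 6.98 in the others. Mapk8 was at 9.14 in SCE C and 4.21 to 5.27 in the others. In each case the outlying portion was the one detected, and it came from the same lysate as the others.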

How the results depend on the processing

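Of the 2 members called in SP against CD8, Map2k3 alone was called at a floor of log2 6 and with no filter on low levels (1 member each). More probe sets were tested there, and 4.4% and 1.72% of them were called. Leaving out 1 sample gave 0 to 4 members, against 3.77 to 6.36% of all probe sets. It gave 0 without CD8 B or CD8 C, 1 without CD8 D and 4 without LSP M. In LSP against USP the same step gave 0 to 1, against 0 to 0.465% of all probe sets, with Dusp12 called without LSP B and Mapk12 without LSP M. Arrays with positive values alone, which leave 1 LSP and 1 USP sample that are assumed to vary like CD8, gave 7 members in SP against CD8 and 6 in LSP against USP, among 27.1% and 20.2% of all probe sets; in them Map4k1 turned to 0.16 (SP minus CD8), and LSP minus USP turned to 2.73 for Map3k12, -0.02 for Map4k1, 0.54 for Mapk7 and -0.57 for Mapk8. An ordinary 2-group t-test at an unadjusted p under 0.05, the threshold of the methods, gave 6 members in SP against CD8 and 1 in LSP against USP. The share over all probe sets at that threshold was not computed for this test, so nothing is read from these counts. After Benjamini-Hochberg adjustment it gave 2 and 0 members, against 4.54% and 0% of all probe sets. The replicate block on array numbers gave 3 members (Mapkapk2 added) and 0, against 9.37% and 0.396%. Spread called 1 member, Dusp2, with a floor at log2 7, against 2.61% of all probe sets. With 1 SCE left out it called 0 to 1 member (Map2k3 without SCE B, Dusp2 without SCE C), against 0 to 1.19% of all. Over all probe sets spread calls ranged from 0 without SCE D to 159 with deviations from the mean, against 23 in the main setting. The spread difference of Map2k2 ran from -0.91 to 0.39 with 1 SCE left out and was above 0 without SCE C. The cause of these changes was not tested. No member was called for its mean under any of the alternatives run. In single cells 15 members were detected at log2 10 and 22 at log2 8, against 3215 and 6447 of all 12422 probe sets. Over the alternatives 8 to 12 members had a biological proportion of 0.5 or more. The number of members that entered changed with the setting, and the shares over all probe sets are not given here, so nothing is read from that range. Levels at the floor have no order, and 3 samples a group leave most intervals wider than 1 log2 unit.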
